A study of Mus musculus with 6 samples.

Results

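The data describe untreated A3-1 mouse embryonic stem (ES) cells, a cultured cell line, through the 2 arrays titled untreated out of 6 arrays in the series. The cells grew in DMEM with 20% fetal bovine serum, non-essential amino acids and LIF, and no siRNA was given. The other 4 arrays hold the same line 48 h after an siRNA against GFP (siGFP, 2 arrays) or against Lin28a (siLin28a, 2 arrays), under the same culture conditions. Each array used 300 ng of total RNA and Affymetrix whole-transcript sense target labelling. The labels name no feeder layer, and they do not say whether the 2 untreated arrays came from separate cultures. The spread between them may therefore be technical, and values are given for replicate 1 and then replicate 2.

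Mouse ES cells derive from the inner cell mass of the blastocyst and can form all tissues of the embryo. Their identity rests on a network of transcription factors around Pou5f1 (Oct4), Sox2 and Nanog. Serum supplies BMP signals and LIF acts through Stat3, and together they hold the cells in self-renewal, while FGF signalling through ERK moves them towards differentiation. ES cells also divide fast with a short G1 phase, use much glucose, and keep many developmental genes silent under Polycomb proteins.

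The table holds 35556 probe sets, called rows here. An annotation of the array names a gene for 23410 rows. For 21797 rows it gives 1 symbol, 19946 genes in all, and a gene with several rows was represented by its brightest row. The 2 untreated arrays had a Pearson correlation of 0.992 across the 23410 rows that name a gene, which are not independent replicates. A gene's values differed by a median of 0.2 on the log2 scale, with 95% of genes within 0.6. Probe sets differ in brightness at equal RNA, so a level places a gene in a zone and is not set against another gene's level as a ratio. In bulk RNA, fewer cells of a type and less RNA per cell cannot be told apart.

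Genes fell into 4 zones of level. The floor was set at 4.6, the 95th percentile of 1248 rows of olfactory, vomeronasal and taste receptors, whose median was 2.65. At the floor lay 6423 genes, 32.2% of all, and 13523 genes (67.8%) were above it. The floor is lenient, because 19 of 39 genes of liver, muscle, brain, eye, skin, blood, testis, pancreas and kidney also exceeded it. The 95th percentile of those 39 genes, 6.35, served as a stricter tissue bound, and 7838 genes (39.3%) were above it. Few of the 39 could exceed it, because it is set from them, and only the muscle gene Actn3 (7.7 and 8.0) did. The brightest 10% of genes, called the abundant zone here, had a mean of at least 8.8 and held 2067 genes (10.4%, with ties at the limit). Beside these, 29 lists of genes were read, with 715 distinct genes of which 656 had a row of their own.

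**Figure D1:**
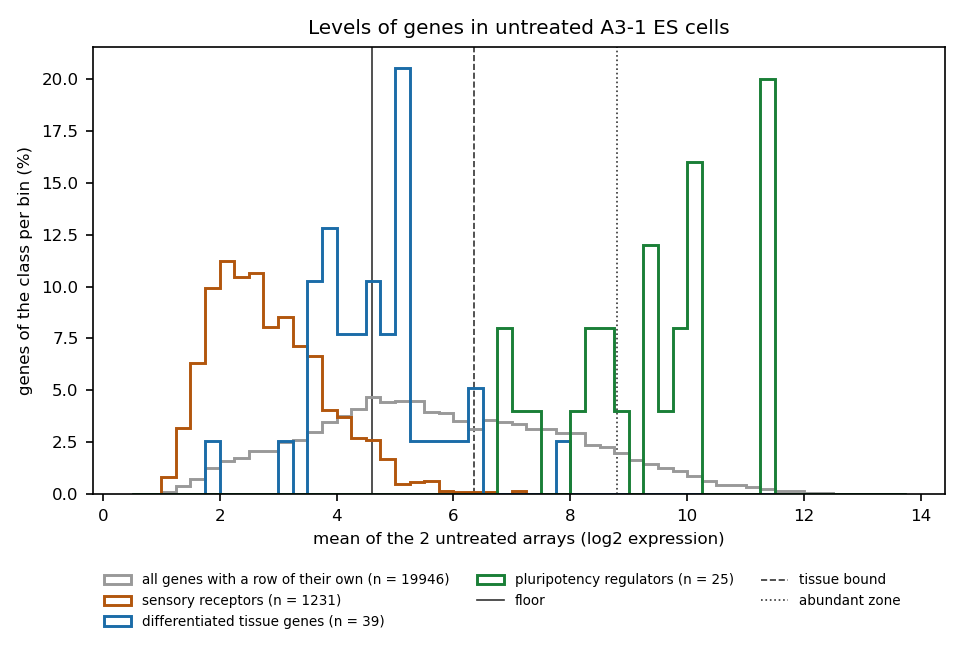
Share of genes per bin of mean level (log2 expression, mean of the 2 untreated arrays) for all genes, sensory receptors, differentiated tissue genes and pluripotency regulators. Vertical lines mark the floor at 4.6, the tissue bound at 6.35 and the start of the abundant zone at 8.8, and all pluripotency regulators lie to the right of the tissue bound.

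The markers of ES cells matched the label. Pou5f1, a POU-domain transcription factor, gave 11.3 and 11.4 and stood at the 99.5th percentile of genes. Sox2, an HMG-box factor that binds DNA beside it, gave 11.5 and 11.3, also at the 99.5th percentile. Nanog, a homeobox factor, gave 11.1 and 11.4, at the 99.3rd percentile. All 3 markers were far inside the abundant zone on both arrays. Of the further ES markers, Zfp42 (Rex1) gave 10.2 and 10. The Nodal co-receptor Tdgf1 gave 11.9 on each array. Dppa5a, an RNA-binding protein of ES cells, gave 12.4 and 12.6 and was among the 25 brightest rows with 1 gene symbol.

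Promoters were read to place these levels beside sequence. The 250 bases before the annotated start are shown for the 3 markers, for the bright housekeeping gene Eef1a1 and for the liver gene Alb (3.6 and 4.0, at the floor), because they span the range from CG-rich to CG-poor promoters in these cells. Sequences are from RefSeq, build GRCm38.p6, printed 5′ to 3′ on the strand of the gene. Capitals mark matches to the searched motifs.

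Nanog (chr6:122707239-122707488, plus strand): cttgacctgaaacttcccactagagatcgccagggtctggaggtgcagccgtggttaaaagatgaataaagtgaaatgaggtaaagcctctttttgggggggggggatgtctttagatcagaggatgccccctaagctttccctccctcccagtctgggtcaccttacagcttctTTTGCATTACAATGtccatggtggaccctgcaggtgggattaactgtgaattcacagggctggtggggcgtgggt

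Pou5f1 (chr17:35505782-35506031, plus strand): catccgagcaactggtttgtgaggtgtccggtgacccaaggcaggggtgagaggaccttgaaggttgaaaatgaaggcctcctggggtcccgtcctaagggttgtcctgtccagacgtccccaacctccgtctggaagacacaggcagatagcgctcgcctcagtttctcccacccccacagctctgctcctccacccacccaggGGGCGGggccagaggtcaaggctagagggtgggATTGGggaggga

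Sox2 (chr3:34649745-34649994, plus strand): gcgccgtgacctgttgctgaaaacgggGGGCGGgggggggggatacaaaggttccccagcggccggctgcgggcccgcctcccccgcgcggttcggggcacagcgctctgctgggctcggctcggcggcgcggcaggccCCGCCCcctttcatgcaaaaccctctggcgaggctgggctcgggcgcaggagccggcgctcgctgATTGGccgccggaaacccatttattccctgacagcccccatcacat

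Eef1a1 (chr9:78481725-78481974, minus strand): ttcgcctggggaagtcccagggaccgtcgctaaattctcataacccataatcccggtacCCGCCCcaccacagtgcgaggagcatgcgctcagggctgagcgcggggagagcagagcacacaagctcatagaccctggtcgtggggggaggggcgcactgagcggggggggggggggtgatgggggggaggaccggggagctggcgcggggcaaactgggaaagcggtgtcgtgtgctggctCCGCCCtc

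Alb (chr5:90460620-90460869, plus strand): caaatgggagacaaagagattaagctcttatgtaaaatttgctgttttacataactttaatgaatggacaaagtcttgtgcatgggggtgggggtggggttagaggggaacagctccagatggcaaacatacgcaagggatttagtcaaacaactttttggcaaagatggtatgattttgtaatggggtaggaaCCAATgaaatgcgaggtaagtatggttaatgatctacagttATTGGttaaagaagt

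The Nanog promoter held the composite Oct-Sox motif, a sequence that Pou5f1 and Sox2 proteins are known to bind side by side, as TTTGCATTACAATG starting 75 bases before the start. This motif was in 2 of 27018 promoters, those of Nanog and of Astn1, a neuronal gene whose level was 4.9 on each array. The Pou5f1 window held a GC box (GGGCGG) and a CCAAT box (CCAAT), and the Sox2 window 2 GC boxes and a CCAAT box. CG dinucleotides numbered 3 in the Nanog window, 8 in that of Pou5f1, 27 in that of Sox2, 18 in that of Eef1a1 and 2 in that of Alb. The Nanog window was thus as poor in CG as that of the typical floor gene described next, although Nanog was abundant.

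Promoter content differed between floor genes and abundant genes. A promoter was found for 78.3% of genes with a row, which is too few to use, so the shares are over protein-coding genes, of which 80.9% had one. This restriction was chosen after the coverage was seen, and shares of the zone between floor and tissue bound are not given because its coverage was 78.6%. Over 4576 floor genes the median promoter had 3 CG dinucleotides and 46.8% GC, and over 1686 abundant genes it had 18 and 60.4%. The GC box was in 18.6% of floor promoters and 65.4% of abundant ones, a difference of 46.8 percentage points (95% interval 44.2 to 49.3, Newcombe). TATAAA, the core of the TATA box, was in 22.2% of floor promoters and 5.99% of abundant ones, a difference of −16.2 points (−17.8 to −14.5). Among floor genes without sensory receptors, 23.7% held a GC box and 17.6% held TATAAA, so both differences were smaller but kept their direction. The intervals cover counting error only, and genes are not independent replicates. Floor promoters were poorer in GC, and the part of base composition in both differences was not tested. Genes between the tissue bound and the abundant zone were close to the abundant ones. Over these 4635 genes the median promoter had 17 CG dinucleotides, 63.6% held a GC box and 5.35% held TATAAA. The differences from the floor are thus not particular to the abundant zone.

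Motifs of factors that act at housekeeping promoters were also more frequent in the abundant zone than at the floor. The ETS motif CCGGAAG was in 18.9% of abundant promoters and 2.54% of floor ones. The E-box CACGTG, which Myc family proteins bind, was in 10.4% and 3.80%. E2F motifs (TTTCGCG or TTTGGCG), of the family that times S phase genes, were in 5.34% and 0.962%. The cAMP response element TGACGTCA was in 3.50% and 0.83%, and the YY1 motif in 0.949% and in 0 of 4576. The octamer ATGCAAAT, a POU-factor motif, was in 1.31% of abundant and 2.32% of floor promoters, a difference of −1.01 points (−1.66 to −0.24). Over 100 bases before the start it was −0.44 (−0.84 to 0.07) and without sensory receptors −0.71 (−1.39 to 0.07), and both of these intervals include 0. All motifs were searched on both strands, and the octamer, read on the other strand, shares TTTGCAT with the Oct-Sox motif. The NRF1 motif was in 1.66% and 0.415%. Between the tissue bound and the abundant zone, the ETS motif was in 16.2% of promoters, the E-box in 9.28% and E2F motifs in 3.6%. The NRF1 motif was in 2.33% there, more than in the abundant zone. CCAAT, which holds no CG, was in 39.7% of abundant and 34.7% of floor promoters. The ETS, E-box, E2F, CRE, YY1, NRF1 and GC box motifs each hold a CG, while TATAAA and the octamer are rich in A and T. The part of base composition in the shares of all these motifs was not tested.

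All 25 measured pluripotency regulators were above the tissue bound, against 39.3% of all genes, and 16 were in the abundant zone, against 10.4%. The median of the 25 was 9.35, and that of all genes 5.65. Factors of the naive state, which resembles the epiblast before implantation, spread over a wide range. Nr0b1 (Dax1), an orphan nuclear receptor, gave 11.3 and 11.4. Esrrb, another orphan nuclear receptor, gave 9.9 and 10.2. Tfcp2l1, a factor downstream of LIF, gave 9.8 and 10.3. These 3 sat in the abundant zone on both arrays.

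The Krüppel-like factors, which partly replace each other in ES cells, were split by the limit of the abundant zone. Klf5 gave 9.6 and 9.8. Klf2 gave 9.2 and 9.5. Klf4 gave 8.7 and 8.2 and was below the limit on both arrays. Tbx3, a T-box factor that responds to LIF and Wnt signals, lay at the limit with 8.8 and 9.0, and near it was Nr5a2, a nuclear receptor that binds the Pou5f1 gene, with 8.8 and 8.6. Prdm14, which keeps DNA methylation low, gave 7.4 on each array. Gbx2, a homeobox target of Stat3, gave 6.8 and 7.0, the lowest value of this list.

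Partners of the network were also present. Utf1, a chromatin-associated factor of undifferentiated cells, gave 11.1 and 11.5. The zinc finger factor Sall4 gave 10 and 10.2, and its relative Sall1 gave 8.7 on each array. Mycn gave 9.8 and 10 and Myc gave 8.2 and 8.0. The repressor Rest, which silences neuronal genes, gave 9.9 and 9.8, and Zfp281 gave 9.5 and 9.1. Zscan10 gave 8.3 and 8.4. Thap11 (Ronin) gave 6.9 and 7.2, and Tcf7l1, the repressor that limits Wnt target genes in ES cells, 6.9 and 7.0. None of these partners came near the floor.

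Of 22 other genes associated with ES cells all were above the tissue bound and 14 (63.6%) were abundant. Among all genes the shares were 39.3% and 10.4%. Dppa2 and Dppa4, SAP-domain proteins that act as a pair on chromatin, gave 10.7 and 10.3 and 9.1 and 8.9. Gdf3, a TGF-beta family ligand, gave 9.9 and 10.1. The pyrimidine salvage enzyme Upp1 gave 9.8 and 10. E-cadherin (Cdh1) and Epcam, which hold ES colonies together, each gave 9.8 and 9.9. Lin28a, the target of the siRNA in the other arrays, gave 9.1 and 9.4, while its relative Lin28b gave 6.6 and 6.3. Dppa3 (Stella), known to be patchy among ES cells in serum, gave 6.6 and 6.9, and Eras, an ES-specific Ras protein, 7.0 and 7.2. Lin28b, Dppa3 and Eras thus lay within 1 of the tissue bound.

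**Figure D2:**
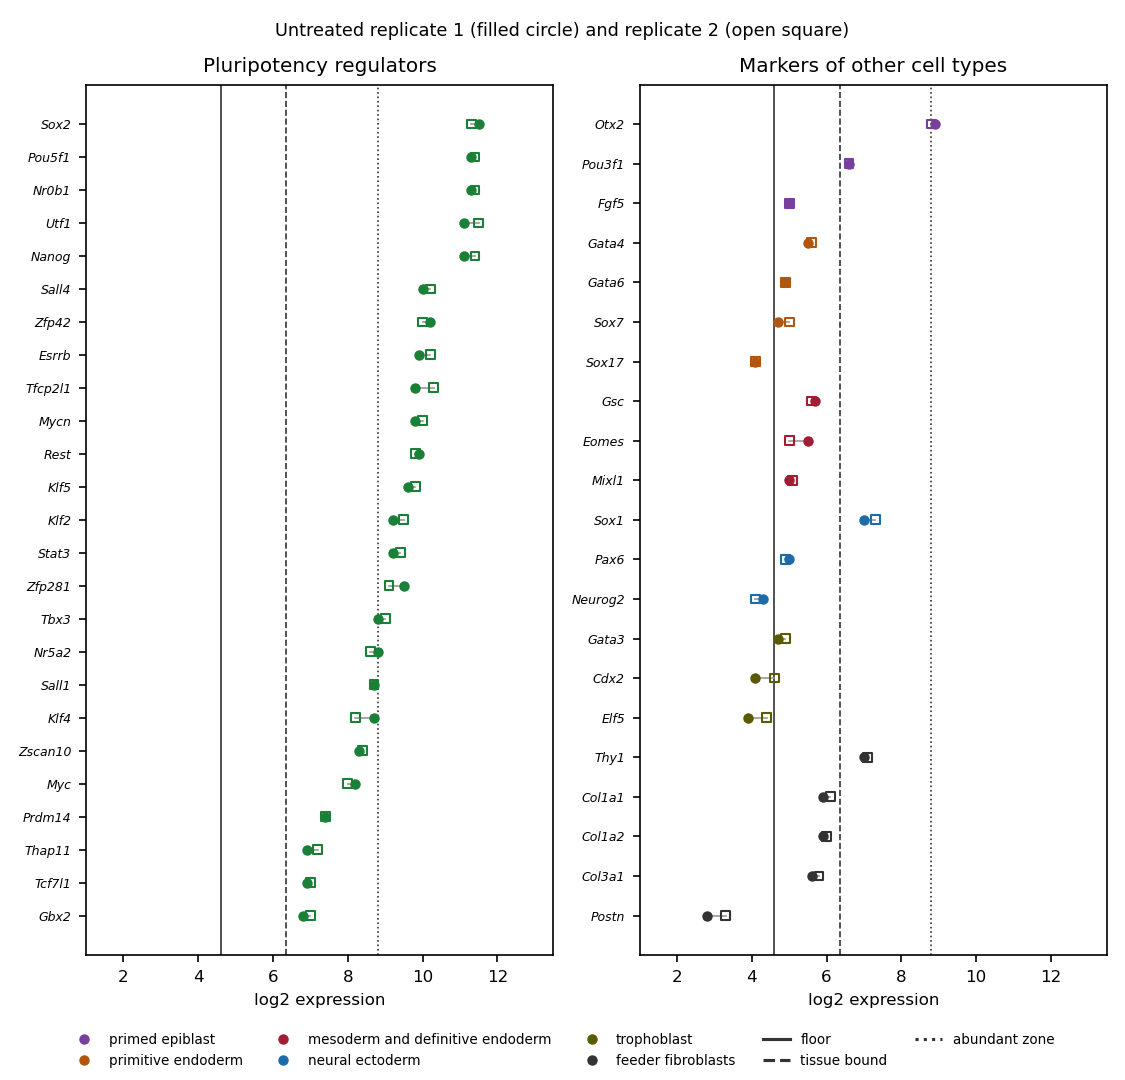
Level on each untreated array (log2 expression) of the 25 pluripotency regulators, left, and of some markers of other cell types, right. Vertical lines mark the floor, the tissue bound and the abundant zone; of the markers drawn on the right Otx2, Pou3f1, Sox1 and Thy1 lie above the tissue bound, and other genes of the same lists, not drawn, do so too.

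Genes of the primed epiblast, the state after implantation, were between these groups. Of 12 measured, 8 (66.7%) were above the tissue bound and 1 (8.3%) was abundant, against 39.3% and 10.4% of all genes. Otx2, a homeobox factor of the early epiblast, gave 8.9 and 8.8. Zic5 gave 8.3 and 8.1, and the de novo methyltransferase Dnmt3b 8.0 and 8.1. Fgf5, the classical marker of the primed state, gave 5.0 on each array and Wnt3 4.9 and 4.7, both between the floor and the tissue bound. The list was therefore divided, with its transcription factors Otx2, Zic5, Zic2 and Sox3 above the bound and Sall2 (5.4 and 5.6), Fgf5, Wnt3 and the cadherin Cdh2 (5.2 and 5.3) below it.

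The DNA methylation machinery was present throughout, with 13 of 14 genes (92.9%) above the tissue bound and 7 (50.0%) abundant. Among all genes the shares were 39.3% and 10.4%. Among the writers, Uhrf1, which guides the maintenance enzyme to replicated DNA, gave 10 and 10.2. The maintenance enzyme Dnmt1 gave 9.5 on each array, and the cofactor Dnmt3l 9.6 and 9.9. Of the enzymes that oxidise methylcytosine, Tet1 gave 10 and 9.8 and Tet2 7.8 and 7.4. Tet3 gave 5.0 on each array and was the exception below the bound. Trim28, the corepressor that silences retroviral repeats in ES cells, gave 11.8 and 12.0. Zfp57, which protects methylation at imprinted loci, gave 10.6 and 10.3.

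Polycomb and trithorax genes had 26 of 32 (81.2%) above the tissue bound and 10 (31.2%) abundant, against 39.3% and 10.4% of all genes. In PRC2, which methylates histone H3 at silent genes, the accessory proteins Jarid2 and Mtf2 gave 10.6 on each array and 10.5 and 9.7, and the core subunit Suz12 gave 10.4 and 9.7. Eed gave 9.8 and 9.4 on its brightest row, but the mean of its dimmest row was 4.35. Phf1 and Phf19, which occupy the same place in the complex as Mtf2, gave 5.8 on each array and 5.8 and 6.0, under the tissue bound. In PRC1, which ubiquitinates histone H2A, Rnf2 gave 9.2 and 8.7 and Pcgf6 9.1 and 8.7. Bmi1, a PRC1 subunit of adult stem cells, gave 4.9 and 4.0 and was at the floor by its mean. The chromobox subunit Cbx7 gave 8.0 and 8.2 and Cbx8 5.1 and 5.8. On the trithorax side, Dpy30 gave 10.7 on each array and Ash2l 10.7 and 10.6, and all 10 genes of that role were above the bound.

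Chromatin remodellers had 28 of 35 genes above the tissue bound and 13 abundant. The BAF complex of ES cells is known to use Smarca4 (Brg1) rather than Smarca2 (Brm). Smarca4 gave 9.1 and 9.3, and Smarca2 gave 3.9 and 3.8, at the floor. Actl6a, a subunit of proliferating cells, gave 10.6 and 10.5, and its neuronal counterpart Actl6b 4.6 on each array, also at the floor. In the same way Dpf2 gave 8.9 and 9.2 and the muscle and heart subunit Dpf3 5.3 on each array. Outside BAF, the deacetylase Hdac1 gave 11.1 and 11.2 and its NuRD partner Chd4 10.3 and 10.4. Chd5, a neuronal relative of Chd4, gave 6.0 and 5.9. Smarca5, the ISWI ATPase, gave 9.4 and 7.7 and Chd1, which keeps ES chromatin open, 8.9 and 7.9. These last values differed between the arrays by more than 95% of genes did.

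LIF and JAK-STAT had 9 of 16 genes (56.2%) above the tissue bound and 3 (18.8%) abundant, against 39.3% and 10.4% of all genes. The medium supplies LIF, and Lif itself gave 4.4 and 4.5, with the related cytokines Osm (4.4 and 4.7) and Il6 (1.6 and 1.5) also at the floor. The shared receptor chain Il6st (gp130) gave 9.0 and 9.2, and Lifr gave 8.2 and 8.5. The other receptor chains were low, with Osmr at 3.8 and 3.7. Stat3 gave 9.2 and 9.4, its target kinase Pim1 9.0 and 9.1, and Jak1 8.0 and 7.6. Jak2 gave 5.1 and 4.5. The feedback inhibitor Socs3 gave 8.0 and 8.5 on its brightest row, and its dimmest row had a mean of 6.05.

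FGF and ERK genes had 17 of 31 (54.8%) above the tissue bound and 4 (12.9%) abundant, against 39.3% and 10.4% of all genes. Fgf4, the ligand that ES cells make for themselves, gave 8.5 and 8.7. Fgf17 gave 8.2 and 8.3 and Fgf15 8.1 on each array, while Fgf7 (3.7 and 3.6), Fgf2 (3.5 and 4.1) and Fgf21 (4.0 and 4.1) lay at the floor. Of the receptors, Fgfr1 gave 7.5 and 7.7 and was above the bound, and Fgfr2, Fgfr3 and Fgfr4 were between the floor and the bound. Some of the genes that ERK activity induces were in the abundant zone, among them Etv5 at 10.1 and 10.3 and the inhibitor Spry2 at 9.4 and 9.5. Others were lower, with Egr1 at 7.1 and 7.5, Spry1 at 6.6 and 6.9, and Dusp4 under the bound at 5.7 and 5.9. The kinase Map2k1 (Mek1) gave 9.8 and 9.7.

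In the Nodal and TGF-beta list 15 of 20 genes were above the tissue bound and 3 were abundant. Nodal gave 8.4 and 8.5, and its co-receptor Tdgf1 is described above. The inhibitors Lefty1 and Lefty2, which Nodal signalling induces, gave 8.1 and 7.6 and 8.1 and 7.8. The type I receptors Acvr1b (7.3 and 7.6) and Tgfbr1 (7.5 and 7.3) were above the bound, while the related Acvr1c gave 3.2 and 3.8, at the floor. Tgfb3 gave 4.3 on each array and Inhba 4.3 and 4.4. Nodal, Tdgf1, Acvr1b, Lefty1 and Lefty2 were thus above the bound, while the receptor Acvr1c was not.

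Of the BMP genes 8 of 23 were above the tissue bound, 34.8% against 39.3% of all genes, and 18 (78.3%) were above the floor, against 67.8%. Their median was 5.6, where all genes had 5.65, and none of the 23 was abundant. Bmp4, an inducer of the Id genes, gave 7.5 and 7.8 and was the only ligand above the bound. Bmp5 gave 3.5 on each array and Bmp2 4.0 and 3.5, at the floor. The receptor Bmpr1a gave 8.4 and 8.3, and Bmpr1b gave 4.3 and 4.2. Smad5 gave 7.3 and 7.5, and Smad1, which carries the same signal, 6.1 and 5.9. Id1, a target of BMP in serum-grown ES cells, gave 6.7 and 6.8 and Id3 6.2 and 6.6, on either side of the bound.

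In the Wnt list 16 of 46 genes (34.8%) were above the tissue bound and 3 (6.5%) abundant, against 39.3% and 10.4% of all genes. None of the Wnt ligand genes was above the bound. Wnt9a gave 6.1 and 6.2, and Wnt8b gave 3.5 and 3.6. In their processing, Porcn, which adds lipid to Wnt proteins, gave 7.4 and 7.3. The frizzled receptors Fzd7 and Fzd5 gave 9.3 and 9.6 and 8.7 and 9.0, in the abundant zone, and the co-receptor Lrp6 gave 8.0 and 8.2. Beta-catenin (Ctnnb1) gave 10.7 and 10.9. Its targets Axin2 (6.2 and 6.1) and Sp5 (4.8 and 4.9) were under the bound, as was the secreted inhibitor Dkk1 at 4.8 and 4.9. The secreted inhibitors Sfrp2 (7.5 and 7.8) and Sfrp1 (7.2 and 7.8) were above it.

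Notch and Hedgehog genes had 15 of 25 (60.0%) above the tissue bound and 2 (8.0%) abundant, against 39.3% and 10.4% of all genes. The Hedgehog receptor and target Ptch1 gave 9.2 and 9.4, while the ligands Shh (4.7 and 5.0) and Dhh (4.8 on each array) were below the bound. Gli1, the usual readout of Hedgehog activity, gave 7.4 and 7.6. The Notch ligand Jag1 gave 7.0 and 7.2 and Dll4 4.5 and 4.6. Notch1, Notch2 and Notch3 lay between 6.6 and 7.1 on the arrays. Rbpj, the DNA-binding partner of Notch, gave 9.8 and 9.9 on its brightest row and a mean of 6.65 on its dimmest. Of the target genes Hes1 gave 7.9 and 7.6 and Hey2 3.9 on each array.

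Insulin and IGF genes had 11 of 20 members above the tissue bound and 2 abundant. The ligands Igf2 (4.9 and 5.0), Igf1 (4.4 and 4.7) and Ins2 (4.2 and 4.5) were below the bound. The scavenging receptor Igf2r gave 8.2 and 8.4, Igf1r 6.7 and 7.0 and the insulin receptor Insr 6.5 and 6.6. The kinase subunits Pik3cb (8.8 and 9.0) and Pik3ca (7.5 and 7.1) were above the bound, and Pik3cg, of blood cells, gave 4.2 and 3.9. Akt2 gave 8.7 and 8.9. The adaptor proteins Irs1 (5.4 on each array) and Irs4 (4.7 and 4.6) were below the bound.

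**Figure D3:**
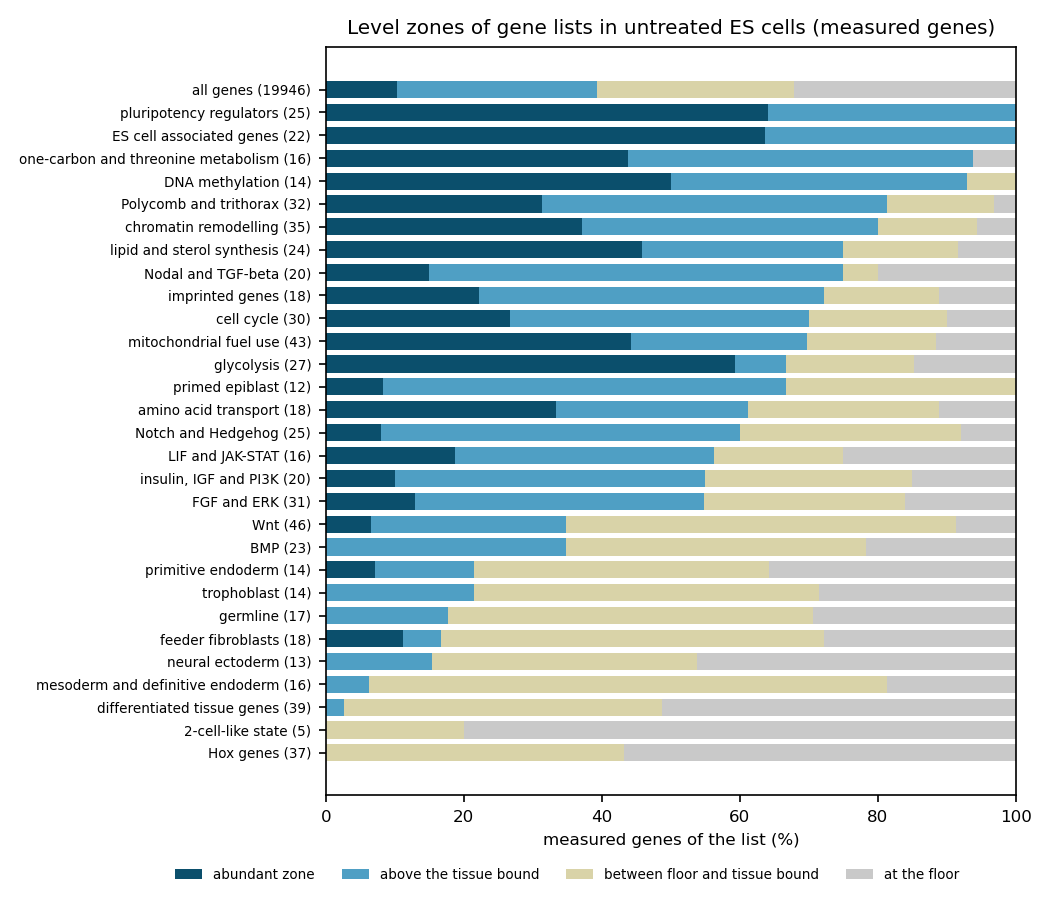
Share of the measured genes of each list in the 4 zones, with the number measured in brackets and all genes on top. All pluripotency regulators and ES associated genes lie above the tissue bound, 39.3% of all genes do, and of the Hox genes and the 2-cell-like genes 0 do. The bound is set from the differentiated tissue genes, so their own share above it follows from that choice.

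Glycolysis had the highest share of abundant genes of all lists outside the ES lists. Of its genes 16 of 27 were abundant, 59.3% against 10.4% of all genes. The neuronal-type glucose transporter Slc2a3 gave 11.8 and 11.9 and Slc2a1 10.9 and 11.1. Slc2a2, of liver and beta cells, gave 4.6 on each array, and Slc2a4, the insulin-responsive transporter of muscle and fat, 5.7 and 5.5. Hexokinase Hk1 gave 12.4 and 12.1 on its brightest row and a mean of 7.65 on its dimmest, and Hk2 gave 9.3 and 9.5. The lactate dehydrogenase subunit Ldha gave 11.8 and 12.1, and Pkm, which makes pyruvate, 11.7 and 11.8. The lactate exporters Slc16a1 (9.9 on each array) and Slc16a3 (9.2 and 9.0) were abundant too.

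Several forms of glycolytic enzymes that other tissues use were low. Pgk1 gave 11.7 on each array, and its testis copy Pgk2 gave 3.0 and 2.8. The testis form Gapdhs gave 4.2 and 4.4, the blood cell hexokinase Hk3 4.2 and 4.7. The liver pyruvate kinase Pklr (5.8 and 5.9), the muscle mutase Pgam2 (5.7 and 5.4) and the neuronal enolase Eno2 (5.3 and 5.5) were between the floor and the tissue bound. Other such forms were above it, among them the muscle enolase Eno3 (6.8 and 7.0), the muscle phosphofructokinase Pfkm (8.7 on each array) and the brain aldolase Aldoc (8.9 and 9.1). Gapdh, Eno1 and Gpi1 were not analysed here.

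**Figure D4:**
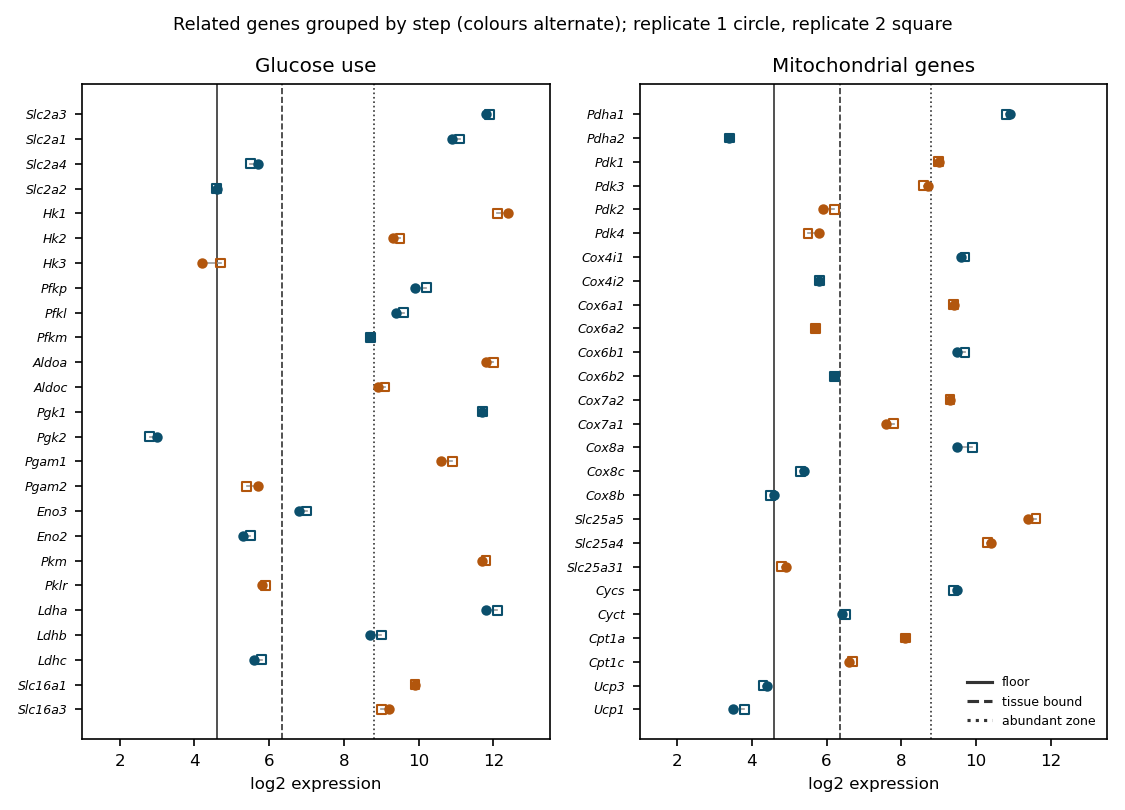
Level on each untreated array (log2 expression) of related genes of glucose use, left, and of mitochondria, right, grouped by step with alternating colours. Pgk1, Ldha and Pdha1 lie in the abundant zone, and the testis forms Pgk2 and Pdha2 and the uncoupling protein Ucp1 lie at the floor.

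In mitochondria 30 of 43 genes (69.8%) were above the tissue bound and 19 (44.2%) abundant, against 39.3% and 10.4% of all genes. The TCA cycle enzyme Mdh2 gave 11.1 and 11.3 and the pyruvate dehydrogenase subunit Pdha1 10.9 and 10.8, while its testis copy Pdha2 gave 3.4 on each array. Of the kinases that switch pyruvate dehydrogenase off, Pdk1 gave 9.0 on each array and Pdk3 8.7 and 8.6. Pdk4, induced by fasting, gave 5.8 and 5.5, and Pdk2 5.9 and 6.2. The ADP/ATP carriers Slc25a5 (11.4 and 11.6) and Slc25a4 (10.4 and 10.3), the latter known from heart and muscle, were abundant, and the testis carrier Slc25a31 gave 4.9 and 4.8. Among cytochrome oxidase subunits, Cox8a gave 9.5 and 9.9, the muscle form Cox8b 4.6 and 4.5 and Cox6a2 5.7 on each array. The muscle form Cox7a1, at 7.6 and 7.8, was above the bound. The uncoupling proteins Ucp1 (3.5 and 3.8) and Ucp3 (4.4 and 4.3) and the coactivator Ppargc1a (3.1 and 3.0) lay at the floor, while Acadm, of fatty acid oxidation, gave 10 and 9.7.

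One-carbon metabolism, on which mouse ES cells depend through threonine, had 15 of 16 genes (93.8%) above the tissue bound and 7 (43.8%) abundant. Among all genes the shares were 39.3% and 10.4%. The serine synthesis enzyme Psat1 gave 10.7 and 11. Mthfd1, of the folate cycle, gave 10.3 and 10.2, and Gldc, which cleaves glycine, 10 and 10.2. The exception was Mat1a, the liver form of methionine adenosyltransferase, at 4.2 on each array, whereas the regulatory subunit Mat2b gave 9.7 on each array. Threonine dehydrogenase (Tdh) was not analysed here. Gcat, the next enzyme after it, gave 7.1 and 7.5.

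Lipid synthesis had 18 of 24 genes above the tissue bound and 11 abundant. The desaturase Scd2 gave 11.1 and 11.2, Acly, which makes cytosolic acetyl-CoA, 10.4 and 10.6, and Fasn 9.9 and 10.2. Scd4, of heart, gave 3.7 and 3.9, and Elovl3, of skin and brown fat, 3.7 and 3.5. All 10 sterol genes were above the bound, with Fdft1 at 10.3 and 10.4 and Mvk, the dimmest, at 7.1 and 7.4. Of 18 amino acid transporters 11 (61.1%) were above the bound and 6 (33.3%) abundant, against 39.3% and 10.4% of all genes. Slc38a2 gave 11.2 and 11.4, Slc3a2 10.9 and 11.1 and Slc7a3, a carrier of arginine and lysine, 10.4 on each array. The cystine carrier Slc7a11 gave 2.9 and 3.7, at the floor.

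Of 30 cell cycle genes 21 (70.0%) were above the tissue bound and 8 (26.7%) abundant, against 39.3% and 10.4% of all genes. Cdk4 gave 11.4 and 11.5 and cyclin E1 (Ccne1) 10.4 and 10.5. The D cyclins Ccnd2 (9.7 and 9.4) and Ccnd1 (9.5 on each array) were abundant as well. Ccne2 gave 6.5 and 5.3, on either side of the bound. Ccnb2 gave 10.4 on each array and Ccna2 10 and 10.1, while the germ cell cyclins Ccna1 (4.3 on each array) and Ccnb3 (2.2 and 2.3) lay at the floor. Inhibitors of the cycle and pocket proteins hold cells in G1. Of 9 of them 4 were above the bound, 44.4% against 39.3% of all genes, and 0 were abundant, with Cdkn1b at 7.7 and 7.5, Cdkn2a at 5.6 on each array, Rb1 at 5.5 and 5.4 and Cdkn2c at 3.5 and 3.6. Cdkn1a and Trp53 were not analysed here.

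Genes of the first embryonic lineages were mostly under the tissue bound. Of 16 mesoderm and definitive endoderm genes 1 was above it (6.2% against 39.3% of all genes), the heart factor Nkx2-5 at 6.5 and 6.4. Gsc gave 5.7 and 5.6, Mixl1 5.0 and 5.1 and the receptor Kdr 4.3 and 4.5. Counted from the floor, 13 of the 16 were above it, 81.2% against 67.8% of all genes. Most thus sat between the floor and the bound, where tissue genes such as Ckm (5.2 and 5.3) also sat. The gene T (Brachyury) was not analysed here.

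In primitive endoderm, the layer that lines the blastocyst cavity, 3 of 14 genes were above the tissue bound, 21.4% against 39.3% of all genes. These were the matrix genes Sparc (9.4 and 9.9), Lamb1 (8.4 and 8.2) and Lama1 (7.3 and 7.7), while the lineage factors were lower. Gata4 gave 5.5 and 5.6, Gata6 4.9 on each array and Sox17 4.1 on each array. The secreted proteins Ttr (3.3 on each array) and Afp (4.0 and 4.3) lay at the floor. In the trophoblast list 3 of 14 (21.4%) were above the bound, namely Tfap2c (8.2 and 8.3), Ets2 (7.3 and 7.5) and Tead4 (6.6 and 6.7). Cdx2, which sets up the trophectoderm, gave 4.1 and 4.6, Elf5 3.9 and 4.4 and the placental gene Tpbpa 2.0 and 2.4, all at the floor.

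In neural ectoderm 2 of 13 genes were above the tissue bound, 15.4% against 39.3% of all genes. Sox1, an early neural factor, gave 7.0 and 7.3 and the tubulin Tubb3 7.2 and 7.4. Pax6 gave 5.0 and 4.9, Neurog2 4.3 and 4.1, Olig2 3.9 and 4.0 and Dcx 3.7 and 3.6. Of the 13 genes 6 lay at the floor, 46.2% against 32.2% of all genes. In the fibroblast list, markers of the feeder cells that some ES cultures use, 3 of 18 (16.7%) were above the bound. Fibronectin (Fn1) gave 11 and 11.3, vimentin (Vim) 10.3 on each array and Thy1 7.0 and 7.1. The collagens Col1a1 (5.9 and 6.1), Col1a2 (5.9 and 6.0) and Col3a1 (5.6 and 5.8) were between the floor and the bound, and Postn (2.8 and 3.3), Dcn (3.5 and 3.3) and Lum (2.1 and 2.6) lay at the floor. Summed levels on the log2 scale have no meaning across probe sets, so the list is given by its range, from a mean of 2.35 for Lum to 11.15 for Fn1.

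Hox genes pattern the body axis after gastrulation and are Polycomb targets in ES cells. Of 37 measured Hox genes 0 were above the tissue bound, against 39.3% of all genes, and 16 were above the floor, against 67.8%. Hoxa4 gave 5.7 and 6.1, the highest mean, and Hoxa3 gave 2.8 and 3.1, the lowest. Anterior, central and posterior genes had medians of 4.5, 4.42 and 4.53, so the medians of the 3 regions of the clusters lay within 0.2 of each other. Germline genes had 3 of 17 (17.6%) above the bound, Tdrd12 (8.6 and 8.3), Piwil2 (6.5 and 6.8) and Prdm1 (6.6 on each array). The meiotic gene Sycp1 gave 2.2 and 2.6. Genes of the 2-cell-like state, a rare state of ES cells, had 1 of 5 above the floor and 0 above the bound, with Usp17lb at 4.8 and 5.1 and Zfp352 at 4.3 and 3.9. The other 7 of 12 genes listed for this state were not analysed here, and Usp17ld, of the same family as Usp17lb but not on the list, is described with the gaps between arrays.

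Imprinted genes, which are expressed from 1 parental copy, had 13 of 18 members (72.2%) above the tissue bound and 4 (22.2%) abundant. Among all genes the shares were 39.3% and 10.4%. The paternally expressed Impact gave 10.5 and 10.3 and Mest 9.6 and 9.8. The maternally expressed Phlda2 gave 9.4 and 10, and Meg3, a long non-coding RNA, 9.0 and 9.4. Igf2 gave 4.9 and 5.0 and Airn, the non-coding RNA that represses Igf2r in cis, 3.5 and 3.1.

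The brightest rows were ranked among those with 1 gene symbol, and rows without a single symbol were not ranked. The elongation factor Eef1a1 gave 13.1 and 13.2, the isomerase Ppia 12.8 and 12.9, and beta-actin (Actb) 12.7 and 12.9. Ribosomal proteins among the 25 brightest were Rpl10, Rps18, Rps2 and Rps6, and near-identical copies in the genome make the level of single ribosomal genes uncertain. The small nuclear RNA Rn7sk gave 12.6 and 12.8. Baiap2l1, an adaptor protein of the actin cytoskeleton, gave 13.1 and 13.2 on its brightest row, but its 3 rows had means from 5.4 to 13.15, so its rank rests on 1 row. Among the next 15 were the chaperones Hspa8 and Hsp90aa1, the ATP synthase subunits Atp5a1 and Atp5b, Eif4a1, Eif5a and Pabpc1 of translation, the Hsp90 co-chaperone Ptges3, the RNA-binding proteins Hnrnpf and Hnrnpk, and mitochondrial COX2.

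The 2 untreated arrays differed by at least 1 for 206 genes, of which 163 were higher on replicate 1 and 43 on replicate 2. Smarca5 had 9.4 and 7.7, and in the other 4 arrays it lay between 8.6 and 9.1. Cep57, a centrosome protein, had 8.4 and 6.7 against 7.9 to 8.0 in the siRNA arrays. Smc5, of a DNA repair complex, had 8.2 and 6.5 against 7.5 to 8.3. For these 3 genes replicate 2 of the untreated cells was the lowest of all 6 arrays. The same held for Spdl1, a spindle protein, with 6.8 and 5.0 against 5.5 to 6.1. In the other direction, Usp17ld, a deubiquitinase of a repeated family, had 6.9 and 8.7 in untreated cells, 6.8 and 8.9 with siGFP and 6.6 and 9.5 with siLin28a. AY036118 had 8.3 and 9.6, 8.0 and 10, and 8.0 and 10.1 in the same order. Macrod2 had 5.9 and 7.2, 5.8 and 6.7, and 6.0 and 6.7. For these 3 genes replicate 2 was the higher array in every group. Vaultrc5, a vault RNA, did not share this, with 3.9 and 5.4 in untreated cells, 4.2 and 4.1 with siGFP and 4.5 and 4.6 with siLin28a. Olfr566, an olfactory receptor gene, had 4.2 and 5.5, then 4.7 and 4.9 in each siRNA group. For Olfr767, an olfactory receptor gene with 7.6 and 5.5 in untreated cells, replicate 1 was the higher array in every group, with 7.6 and 6.2 for siGFP and 7.3 and 5.9 for siLin28a.

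The zones were largely shared with the siRNA arrays. Of the 7838 genes above the tissue bound in untreated cells 7339 (93.6%) were above it in each of the 4 siRNA arrays. Of the 6423 floor genes 5764 (89.7%) were at the floor in each of them, and 0 were above the bound in all 4. Of the 2067 abundant genes 1713 (82.9%) stayed at or above 8.8 in each.

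The test of the untreated arrays against the mean of the siGFP and siLin28a groups asks what sets untreated cells apart from the rest of the series. It mixes siRNA delivery with the knockdown of Lin28a, so each group's values are given. Limma called 0 of 23410 rows (0%) at an adjusted p under 0.05, with 1272 rows (5.43%) at an unadjusted p under 0.05, of which 596 were higher and 676 lower in untreated cells. Least squares without limma's shared prior called 93 rows, all of them among the 111 rows whose 2 values were equal within every group, and gave 1137 unadjusted. The untreated arrays lay above all siRNA arrays for 839 rows (3.58%) and below them for 962 rows (4.11%). Precision is limited by the 2 arrays per group.

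The row with the smallest p was Plk2, a kinase of the stress response. It had 6.8 and 6.7 in untreated cells, 7.8 and 7.7 with siGFP and 8.4 and 8.3 with siLin28a, a difference of −1.30 (SE 0.10, adjusted p 0.283 by limma). It did not pass, except with limma's robust prior, where the adjusted p was 0.0379. The 5 genes named in each direction were taken among rows above the floor without overlap between untreated and siRNA arrays. Their separation therefore follows from the choice. Predicted genes, Rik clones and sensory receptors were passed over. The angiopoietin receptor Tek had 6.1 and 6.0, then 6.8 and 6.6, then 7.2 and 7.1, a difference of −0.88 (SE 0.11). Dnmt3b had 8.0 and 8.1, then 8.4 and 8.2, then 9.5 and 9.4, a difference of −0.82 (SE 0.11). Nefl, a neurofilament, had 5.9 and 5.7, then 6.4 on each array, then 6.7 and 6.8, a difference of −0.78. Epha2, an ephrin receptor, had 8.2 and 8.3, then 8.9 and 8.8, then 9.0 and 9.1, a difference of −0.70. For Dnmt3b most of the difference was in the siLin28a arrays. For Plk2, Tek, Nefl and Epha2 the siGFP mean was nearer to the siLin28a mean than to the untreated mean.

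In the other direction Tbx3 had 8.8 and 9.0 in untreated cells, 8.6 on each siGFP array, and 7.4 and 7.5 with siLin28a, a difference of 0.88 (SE 0.11, adjusted p 0.792 by limma). The ubiquitin ligase Rnf213 had 8.5 and 8.4, then 8.2 on each array, then 7.5 on each array. For both, the siLin28a arrays held most of the difference. Stra8, which starts meiosis, had 5.5 and 5.1 against 4.4 in each of the 4 siRNA arrays, a difference of 0.90 (SE 0.14) with its siRNA values at the floor. Calb2, a calcium-binding protein, had 7.0 and 7.3, then 6.3 and 6.7, then 5.8 and 6.0, a difference of 0.95. Rbm12b2 had 6.9 on each array, then 6.5 and 6.3, then 6.1 and 6.2, a difference of 0.62. The adjusted p was 0.792 by limma for each of the 9 genes named beside Plk2.

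None of the 3 markers passed this test, and their untreated values overlapped those of the siGFP arrays. For each of the 3, both untreated values were above both siLin28a values. Pou5f1 had 11.2 and 11.4 with siGFP and 11 and 11.2 with siLin28a, a difference of 0.15 (SE 0.12, adjusted p 0.953 by limma). Sox2 had the same 4 values, with a difference of 0.20 (SE 0.13, adjusted p 0.943 by limma). Nanog had 10.9 and 11.3, then 10.3 and 10.5, a difference of 0.50 (SE 0.16, adjusted p 0.841 by limma). The difference for Sox2 was 0.10 without untreated replicate 1 and 0.3 without untreated replicate 2. Of the 25 pluripotency regulators 0 were called, 20 had higher values in untreated cells and 5 lower, where of all 23410 rows 11184 were higher and 10578 lower. Their median difference was 0.20, where all rows had 0. It was 0.05 against siGFP and 0.25 against siLin28a, and these comparisons share the untreated arrays. Of the 12 primed genes 9 had lower values in untreated cells, with medians of 0.03 against siGFP and −0.23 against siLin28a, and 0 were called.

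**Figure D5:**
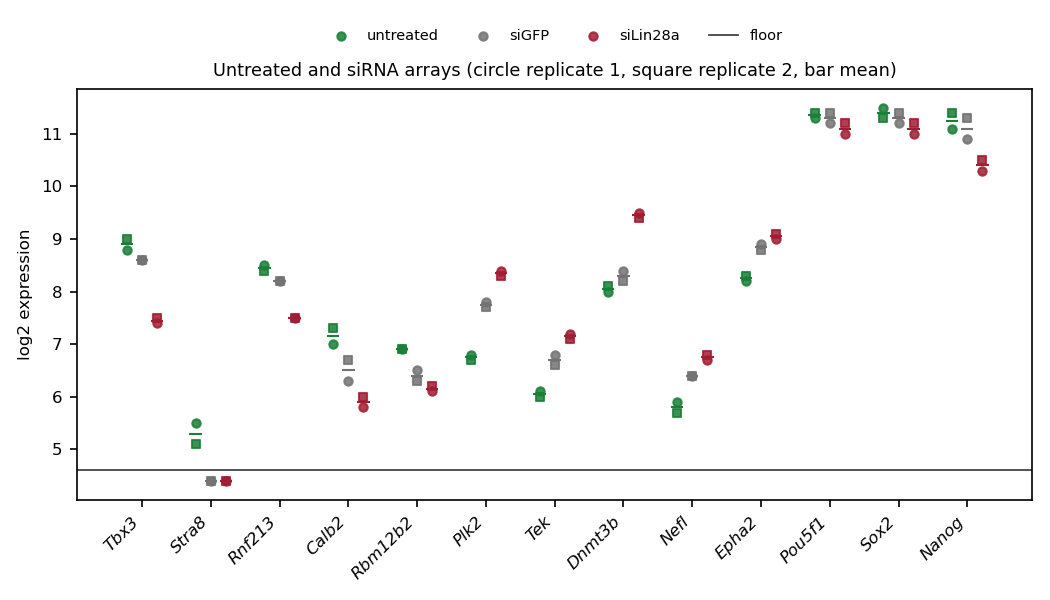
Level on all 6 arrays (log2 expression) of 10 genes from the test of untreated against siRNA arrays and of the 3 markers. Circles are replicate 1, squares replicate 2 and bars group means. The first 10 genes had the smallest p among genes chosen for no overlap with the siRNA arrays, and none passed the threshold. For Pou5f1, Sox2 and Nanog the untreated values overlap those of siGFP and lie above those of siLin28a.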

How the data were processed

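RNA of 6 samples of A3-1 ES cells was measured on Affymetrix arrays. Per the submitters' processing notes, the authors used Affymetrix Expression Console with RMA for the deposited log2 values. RMA removes background, quantile normalizes and joins the probes of a probe set, and its version is not given in the labels. The values are in steps of 0.1. Genes were named from GEO's platform annotation, and 21698 of 21797 rows with 1 symbol matched RefSeq by Entrez number, with 0 symbols changed.

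Groups were taken from the sample titles. Levels and zones were computed from the 2 untreated arrays alone, with the brightest row for each gene. Untreated arrays were compared with the siRNA arrays by a two-sided test in limma 3.58.1 (R 4.3.3; eBayes with no trend). The fit held 6 arrays in 3 groups and had 3 residual degrees of freedom, and p-values were adjusted by Benjamini-Hochberg over 23410 rows with a threshold of 0.05. The script was tested on simulated data. SE is limma's moderated standard error.

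The members and gene lists were chosen with earlier results of these data known. Genes were named from these sets, the lists in part: the markers, all pluripotency regulators, up to 3 of the brightest and dimmest genes of each role in a list, the 25 brightest rows and the next 15, the 5 largest gaps between the untreated arrays in each direction above the floor, and, as no row passed the test, the 5 smallest p in each direction without overlap; other genes were named after their values were seen. Alternatives were the reference for the floor, the mean of a gene's rows, a further normalization, a median shift, a robust prior, a filter on dim rows, the replicate number as a block and leaving out each array.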

Additional observations from a re-analysis of the deposited data

How the results depend on the processing

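The number of genes above the floor was 13523, and 7838 with the floor from differentiated tissue genes. The count of the tissue genes themselves follows from how that floor is set. Lists that moved by over 1.5 times with that floor, which was added for the lists after seeing the data, were FGF and ERK (17), BMP (8), Wnt (16), Notch and Hedgehog (15), insulin and IGF (11), trophoblast (3), primitive endoderm (3), mesoderm and endoderm (1), feeder fibroblasts (3), neural ectoderm (2), germline (3), tissue genes (1), and Hox and 2-cell-like genes (0 each). With the 99th percentile of sensory receptors as floor, the counts were 4 for mesoderm and endoderm, 2 for neural ectoderm, 8 for feeder fibroblasts, 6 for tissue genes, 3 for Hox and 0 for 2-cell-like genes, and with the 90th percentile 27 for Hox and 2 for 2-cell-like genes. Where abundant meant the top twentieth, 7 ES associated, 0 primed, 5 Polycomb and trithorax, 6 remodelling, 0 LIF, 2 FGF, 1 Wnt, 1 Notch and Hedgehog, 0 insulin, 6 lipid and 4 cell cycle genes remained in it. Insulin and IGF genes in the abundant zone numbered 2, and 1 without untreated replicate 2. In the test, a robust prior called 1 row, Plk2. With the replicate number as a block 0 rows were called and 1897 had an unadjusted p under 0.05 by limma. Deviations of same-numbered arrays correlated at 0.154 between untreated and siGFP and at −0.0352 between untreated and siLin28a. Between siGFP and siLin28a the correlation was 0.357. The main fit left the replicate number out, and whether same-numbered arrays belong together was not tested. Leaving out each array called 0 rows. Over 100 bases before the start, the abundant minus floor differences in percentage points were −9.62 for TATAAA, 10.1 for CCAAT, 37.0 for the GC box, 1.91 for E2F, 0.415 for YY1, 11.5 for ETS and 3.37 for the E-box. Without sensory receptors they were −11.6 for TATAAA and 41.7 for the GC box. The octamer and NRF1 differences, −1.01 and 1.25 in the main setting, were −0.44 and 0.76 over 100 bases. All other counts of genes under these alternatives were within 1.5 times of the values in the text, and no difference turned its sign. The number of arrays and the brightness of single probe sets limit what the levels show.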

Other observations

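Rows of microRNA genes belong to no list above. The array holds 305 rows with a single microRNA symbol, host genes such as Mir17hg included, with a median of 4.05 in untreated cells. Each of these rows was counted, whereas the shares of all genes use a gene's brightest row. At the floor lay 186 of the 305 rows, a larger share than the 32.2% of all genes. Above the tissue bound were 38 of the 305, a smaller share than the 39.3% of all genes. In the abundant zone were 0, against 10.4% of all genes. The brightest were Mir6516 (8.6 and 8.8), Mir341 (8.3 on each array) and Mir320 (8.1 and 8.0). Mir302a, of a cluster that ES cells are known to express, gave 1.6 and 2.1, and Mirlet7a-1, a let-7 locus whose maturation LIN28A blocks, 4.3 and 4.1. Rows of let-7 loci ranged from Mirlet7c-1 (2.1 and 2.7) to Mirlet7i (5.6 on each array). All these microRNA rows read sense target made from total RNA, and the values are those of the rows and not of mature microRNAs.

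Of 999 genes with several rows, 224 had rows whose means differed by over 2, and the median spread was 0.8. Beside the genes whose rows are compared above, the spread was from 4.2 to 9.45 for cytochrome c (Cycs), from 4.35 to 8.5 for the NuRD subunit Mta3 and from 5.2 to 7.6 for Cdkn1b. The zone of such a gene rests on its brightest row.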
